A study of Mus musculus with 4 samples.

Results

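Lipid-associated macrophage genes are a set of 8 genes, Apoe, Trem2, Gpnmb, Lpl, Spp1, Fabp5, Abca1 and Lgals3, out of 27998 genes counted in single cells from mouse tumours. The members were chosen by name and not by a threshold on their values, but with earlier results of these data known. Each symbol matched 1 gene in the files. None of the 8 is among the marker genes by which cells were sorted into classes here.

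The 4 groups were profiled with a droplet method in which each transcript molecule is counted by a unique molecular identifier (UMI). The groups are Ac, C, aC+C and IgG, with 1 library each; the labels do not spell out these names, and IgG was taken as the control by its name. The labels give an age of 6 to 8 weeks for all 4 groups (in the genotype field) and no dose or treatment time. The sample titles name immune cells from tumours and the series title CD8+ T cells (14.5% to 29.7% of barcodes met the CD8 T gate), while the cell type field says goblet cells and the extraction protocol, shared by all 4 groups, describes flushed tissue and isolated epithelium of RedMUC298trTg mice. Whether the tumours came from such mice is not stated. With 1 library in a group there is no spread between replicates, so no difference was tested. Each interval given is an exact 95% interval and reflects counting error alone.

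Macrophages that take up much lipid in tumours, fat tissue and artery walls turn on a shared set of genes. TREM2 is a surface receptor for lipids and lipoproteins that signals through the adaptor TYROBP. APOE is the protein of lipoprotein particles that ABCA1 loads with cholesterol leaving the cell, LPL and FABP5 act on fatty acids arriving and moving within it, and GPNMB, osteopontin (Spp1) and galectin-3 (Lgals3) are glycoproteins or lectins linked to lysosomes, matrix and damaged membranes.

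Barcodes with at least 1000 UMIs and at most 10% mitochondrial UMIs were kept, 4028 in Ac, 4210 in C, 4081 in aC+C and 3436 in IgG. Median depth was between 10492 and 11594.5 UMIs. Between 87.0% and 91.3% of them carried the leukocyte gene Ptprc (CD45), whereas Muc2, the goblet cell mucin, had 2 to 4 UMIs over all kept barcodes of a library. The goblet label thus lacks its defining transcript here. Cells were sorted into gates by marker genes. The macrophage gate needed at least 40 UMIs per 10000 of macrophage markers such as C1qa, C1qb, C1qc, Adgre1, Mrc1, Ms4a7 and Pf4 and held 662 cells of Ac, 606 of C, 707 of aC+C and 277 of IgG. Cells with 10 to 40 such UMIs formed an intermediate gate (158, 213, 218 and 85 cells in Ac, C, aC+C and IgG), and cells below 10 with monocyte genes such as Ly6c2 and Ccr2 a monocyte gate (179, 242, 378 and 99). The dendritic gate held 101, 58, 57 and 84 cells and the CD8 T gate 1148, 609, 950 and 1022. The CD4 T gate had 383, 248, 219 and 239 cells and the NK gate 449, 526, 226 and 470. B cells (3 to 46 a library) were too few to describe. Between 17.9% and 34.7% of barcodes met no gate, most of them with Cd3 genes but with no or both co-receptors, with myeloid genes as well, or past another limit. In the macrophage gate the 3 Cd3 genes summed to between 8.08 and 11.7 UMIs per 1000000 UMIs of the gate (CPM), against 2928 to 3668 CPM in the CD8 T gate. Any 2 libraries shared 2 to 7 cell barcodes.

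Apoe, Trem2 and Abca1 had one and the same order over the myeloid gates, highest in macrophages, then intermediate cells, then monocytes, and no library of one gate overlapped with any library of the next. Apoe (chromosome 7, 19696244 to 19701310, mm10) was at 18178 CPM in macrophages of Ac, 20018 in C, 15723 in aC+C and 13475 in IgG. In intermediate cells its level was 7307, 8579, 4404 and 4387 CPM, and in monocytes 2849, 3479, 1377 and 2581 CPM, in Ac, C, aC+C and IgG. Within a library macrophages were 5.22 to 11.4 times above monocytes. In dendritic cells, the CD8 T, CD4 T and NK gates and fibroblast or tumour-like cells Apoe lay between 14.99 and 132 CPM, and these gates overlapped. The macrophage gate was 257 to 631 times above the CD8 T gate.

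Trem2 (chromosome 17, 48346401 to 48352276) was at 498, 582, 513 and 427 CPM in macrophages of Ac, C, aC+C and IgG. Intermediate cells had 315, 325, 248 and 174 CPM and monocytes 112, 153, 104 and 109 CPM. In the dendritic, lymphocyte and fibroblast or tumour-like gates it did not pass 4.63 CPM, and it was at 0 UMIs in dendritic cells of aC+C and IgG and in CD4 T cells of IgG. Its macrophage level was 3.8 to 4.93 times its monocyte level. Abca1 (chromosome 4, 53030789 to 53159988), the cholesterol exporter, was at 312, 247, 326 and 269 CPM in macrophages, between 105 and 170 CPM in intermediate cells and between 62.5 and 72.3 CPM in monocytes. Fibroblast or tumour-like cells had 14.8 to 23.3 CPM of Abca1, above every dendritic and lymphocyte value (1.17 to 11.02 CPM).

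**Figure D1:**
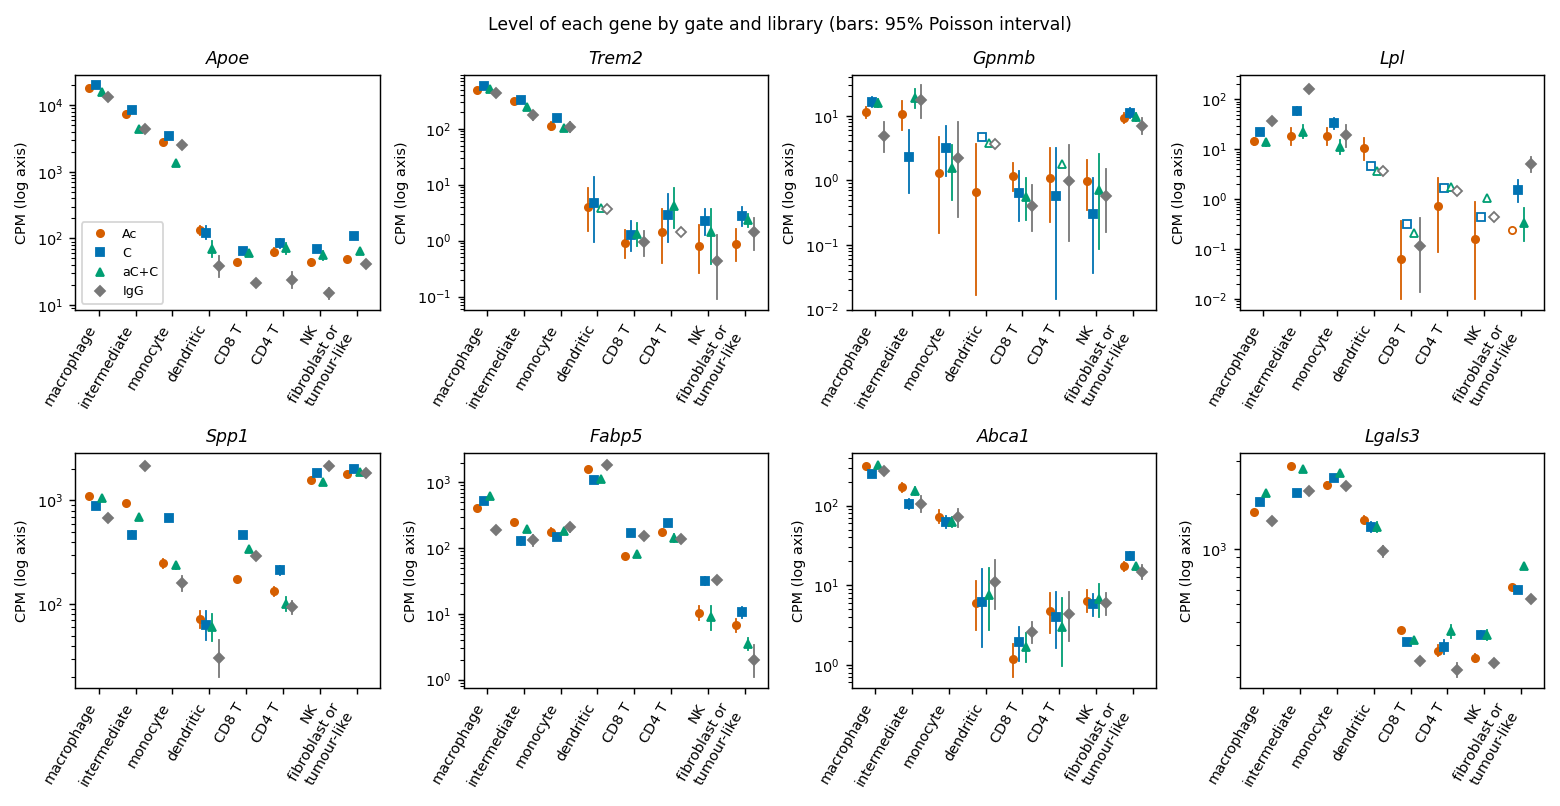
Level of each of the 8 genes in CPM (log axis) in 8 gates, with 1 symbol per library (Ac, C, aC+C and IgG from left to right within a gate), bars for the 95% Poisson interval and open symbols for libraries with 0 UMIs, drawn at the level that 3 UMIs would give. Apoe, Trem2 and Abca1 step down from macrophages to monocytes in every library, Fabp5 is highest in the dendritic gate, and Spp1 is above the macrophage level in NK and fibroblast or tumour-like cells.

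Because Apoe, Trem2 and Abca1 stepped down together, the 250 bases before their RefSeq starts (GRCm38.p6, the assembly of mm10) are shown, 5′ to 3′ on the strand of the gene. Capitals mark matches to 2 motifs, searched on both strands. One is a repeat of the kind bound by the oxysterol receptor LXR with RXR, spelled GGTNA, then any 5 bases, then GGTCA. The other is the E box CACGTG. Apoe and Abca1 are known LXR targets. The Apoe window is the most upstream of the 3 starts listed, at chr7:19699189-19699438 on the minus strand. Trem2 is at chr17:48346151-48346400 on the plus strand and Abca1 at chr4:53159896-53160145 on the minus strand. The gene spans given above end at 19701310 for Apoe and 53159988 for Abca1. The Apoe window therefore lies within its span and the Abca1 window overlaps with its span, so these starts are not the ends of the spans.
Apoe: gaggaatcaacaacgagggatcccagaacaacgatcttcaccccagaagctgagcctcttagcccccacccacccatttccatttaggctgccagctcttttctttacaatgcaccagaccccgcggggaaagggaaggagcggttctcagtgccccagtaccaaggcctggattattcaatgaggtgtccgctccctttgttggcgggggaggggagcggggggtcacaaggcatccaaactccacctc
Trem2: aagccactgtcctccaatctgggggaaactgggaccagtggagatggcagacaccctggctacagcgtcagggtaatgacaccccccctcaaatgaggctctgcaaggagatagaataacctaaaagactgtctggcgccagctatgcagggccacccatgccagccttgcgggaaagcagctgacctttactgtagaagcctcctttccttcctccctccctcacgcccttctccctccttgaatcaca
Abca1: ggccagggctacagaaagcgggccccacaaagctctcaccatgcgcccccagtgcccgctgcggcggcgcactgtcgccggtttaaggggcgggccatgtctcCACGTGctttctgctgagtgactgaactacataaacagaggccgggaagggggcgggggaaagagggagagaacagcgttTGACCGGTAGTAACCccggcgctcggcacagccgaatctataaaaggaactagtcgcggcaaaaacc
The Abca1 window held the repeat on its opposite strand, from 67 to 53 bases before the start, and the E box from 147 to 142 bases before it; neither motif was in these windows of Apoe or Trem2. On either strand the repeat was in 0.177% and the E box in 6.02% of 32851 such windows. The letters were chosen with the Abca1 element known, and a match says nothing of what is bound in these cells.

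Lgals3 (chromosome 14, 47373860 to 47386167), which encodes galectin-3, was lower in macrophages than in monocytes, with no steady order through intermediate cells. Macrophages of Ac, C, aC+C and IgG had 1582, 1803, 2019 and 1426 CPM, intermediate cells 2832, 2029, 2727 and 2060 CPM and monocytes 2230, 2419, 2587 and 2193 CPM. Every monocyte library was above every macrophage library, and intermediate cells overlapped with monocytes. Dendritic cells overlapped with macrophages at 972 to 1443 CPM. Lgals3 was also well above 0 in all other gates, at 532 to 807 CPM in fibroblast or tumour-like cells and 220 to 363 CPM in the CD8 T, CD4 T and NK gates.

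Fabp5 (chromosome 3, 10012585 to 10016610), an intracellular carrier of fatty acids, was highest in the dendritic gate, with no overlap with any other gate described. Dendritic cells had 1585 CPM in Ac, 1092 in C, 1126 in aC+C and 1841 in IgG, against 409, 528, 627 and 186 CPM in macrophages. Almost all of it lay in dendritic cells with more UMIs of the migratory genes Ccr7, Fscn1, Ccl22 and Cacnb3 than of other dendritic markers. Those cells (58 in Ac, 25 in C, 37 in aC+C and 61 in IgG) had 3522, 2734, 2404 and 2760 CPM, and the other dendritic cells 57.0, 48.0, 2.36 and 172 CPM. Lgals3 was lower in the migratory part than in the rest in Ac (373 against 2286 CPM), aC+C (661 against 1884 CPM) and IgG (572 against 1699 CPM), but not in C (1407 against 1260 CPM). Macrophage, monocyte, intermediate and CD4 T levels of Fabp5 overlapped. Fabp5 has near-identical copies elsewhere in the mouse genome, and whether their reads add to these counts was not tested.

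Spp1 (chromosome 5, 104435111 to 104441053), which encodes the secreted matrix protein osteopontin, was not highest in macrophages. Fibroblast or tumour-like cells had 1806, 2025, 1869 and 1819 CPM in Ac, C, aC+C and IgG and the NK gate 1573, 1834, 1509 and 2130 CPM, and these overlapped. Macrophages had 1108, 885, 1064 and 679 CPM, below every NK library. They held 20.8%, 10.5%, 15.04% and 4.85% of all Spp1 UMIs in kept barcodes, where they held 81.9%, 63.0%, 82.4% and 56.7% of those of Apoe. Intermediate cells ranged from 470 CPM in C to 2160 CPM in IgG, where 1 cell gave 45.6% of the UMIs. CD8 T cells had between 174 and 468 CPM.

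Gpnmb and Lpl were rare and came from few cells. Gpnmb (chromosome 6, 49036518 to 49058182), a transmembrane glycoprotein of lysosome-rich macrophages, had 116, 137, 169 and 16 UMIs in the macrophage gate of Ac, C, aC+C and IgG, or 11.3, 16.6, 15.8 and 4.85 CPM. A single cell held 26.7%, 27.7%, 8.28% and 56.2% of these. The macrophage range overlapped with intermediate cells (2.33 to 18.8 CPM) and with fibroblast or tumour-like cells (7.05 to 11.2 CPM). Lpl, the enzyme that releases fatty acids from lipoprotein triglycerides (mm10 chromosome 8, 68880555 to 68906932), was at 14.4, 22.1, 13.9 and 37.6 CPM in macrophages, on 148, 183, 148 and 124 UMIs. Intermediate cells had 18.3, 58.9 and 22.8 CPM in Ac, C and aC+C against 162 CPM in IgG, where 1 cell gave 35.5% of the UMIs. In the lymphocyte gates Lpl had 0 to 2 UMIs in a library.

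The members also varied among myeloid cells along the share of macrophage markers. From fewer than 2 marker UMIs per 10000 to 160 or more, Apoe was at 1565, 3257, 7307, 10898, 14724 and 24325 CPM over 6 ranges in Ac. In IgG the same 6 ranges gave 2012, 2833, 4387, 3816, 10919 and 20909 CPM. Trem2 in Ac climbed over these ranges to 573 CPM, against 76.9 CPM in the lowest range, and Abca1 to 327 CPM, against 55.7 CPM. Lgals3 had its lowest level in the top range in every library, at 1223, 1711, 1901 and 1087 CPM in Ac, C, aC+C and IgG. Fabp5 reached 476, 712 and 799 CPM in the top range in Ac, C and aC+C, against 162, 248 and 172 CPM in their lowest range. In IgG it was at 234 CPM in the top range and at 209 CPM in the lowest, with 81.2 CPM in the fourth range between them. Spp1 was not highest at the top in any library. Ac and aC+C peaked in the fourth range at 1718 and 1372 CPM. C peaked in the fifth at 1249 CPM and IgG in the third at 2160 CPM. The third range is the intermediate gate, where a single cell gave a large part of the Spp1 UMIs of IgG, as given above.

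**Figure D2:**
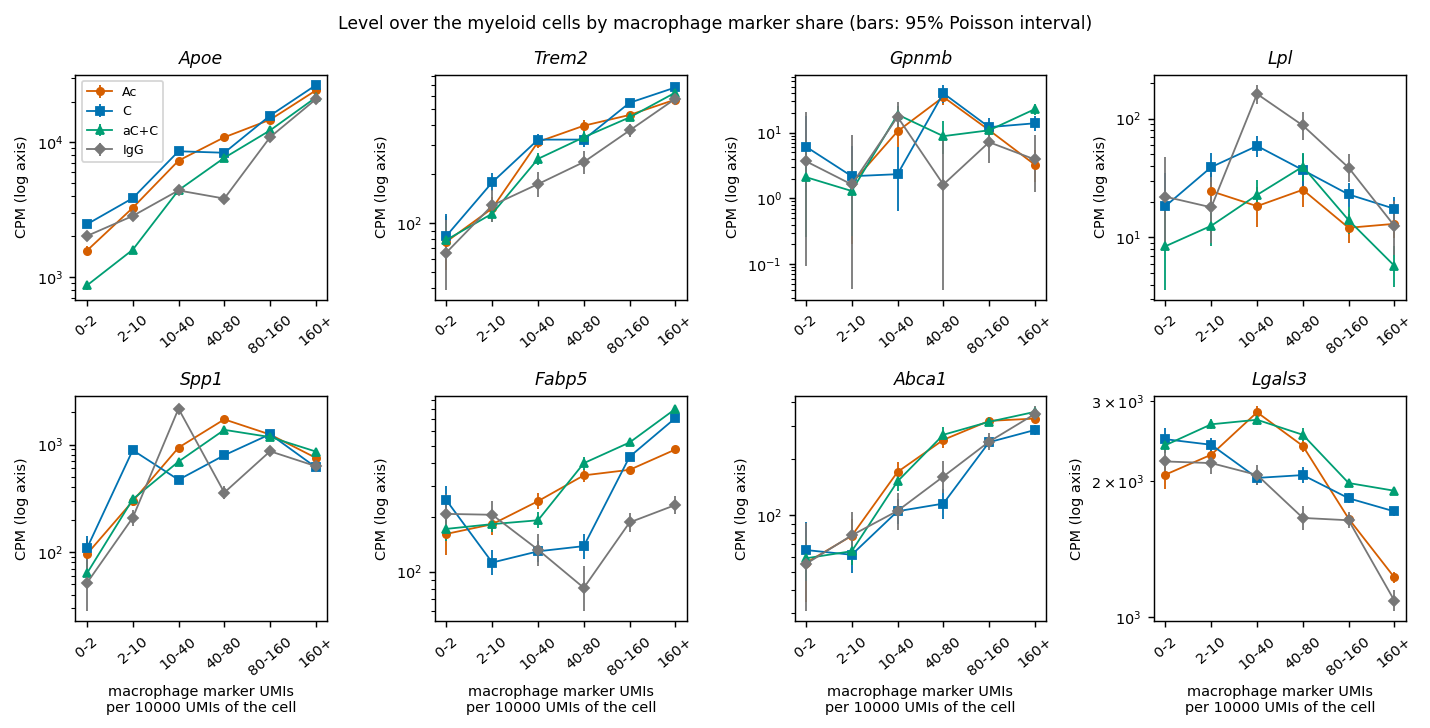
Level of each gene in CPM (log axis) in the cells of the macrophage, intermediate and monocyte gates, grouped into 6 ranges of macrophage marker UMIs per 10000 UMIs of the cell, with 1 line per library and bars for the 95% Poisson interval; ranges with 0 UMIs are not drawn. Trem2 climbs with the marker share in every library, Apoe and Abca1 do so with small dips (Apoe in the fourth range of C and IgG, Abca1 in the second of C), Lgals3 is lowest in the top range, and Fabp5 of IgG stays below the other 3 libraries from the fourth range on.

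Within the macrophage gate most cells carried several members. With each cell thinned to 1000 UMIs, Apoe was seen in 96.7% of macrophages of Ac, 96.7% of C, 95.05% of aC+C and 88.1% of IgG, against 5.66%, 4.60%, 6.11% and 1.76% of CD8 T cells; median depths before thinning were 11467 to 15399 UMIs in macrophages and 10805 to 13255 in CD8 T cells. Trem2 was seen in 36.4%, 40.6%, 36.4% and 34.7% and Lgals3 in 68.1%, 71.5%, 75.8% and 61.7% of macrophages. Fabp5 was seen in 21.3%, 28.1%, 31.5% and 9.39%, a lower share in IgG than in the other 3. At 3000 UMIs, which left out 35 to 47 shallower cells a library, the commonest number of members seen in a cell was 4 of 8 in every library, in 33.8%, 30.8%, 31.5% and 38.0% of cells. In Ac, C, aC+C and IgG, 58, 48, 86 and 6 cells carried 6 members and 2, 8, 15 and 0 cells carried 7, and 1 cell, in IgG, carried all 8.

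Across the 32 sums of gate and library with at least 50 cells, the log2 level of Apoe went with that of Trem2 (Pearson r = 0.992) and of Abca1 (0.962), and less with Lgals3 (0.830), Lpl (0.832) or Gpnmb (0.611). Spp1 did not follow Apoe (0.209), and Spp1 and Fabp5 ran against each other (-0.702). These sums share libraries and gates, so the values are descriptions. The genes most like Apoe among 10846 were Trem2 itself, C3ar1 (0.987) and Adgre1 (0.986), which is one of the macrophage markers. Those most like Trem2 were C3ar1, C5ar1 and Adgre1, those most like Abca1 were Sash1, Cln8 and Arhgap24, and those most like Lgals3 were Il13ra1, Rab32 and Stom. Fabp5 was most like Bmp2k, Plxnc1 and Pmaip1 and Spp1 most like Arap3, March8 and D8Ertd82e. Gpnmb was most like Lhfpl2, Cdk20 and Pdpn and Lpl most like A530064D06Rik, Slfn4 and Lyl1, at r between 0.885 and 0.903 on few UMIs.

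Ac was set against IgG in the macrophage gate. Fabp5, Spp1 and Gpnmb exceeded their IgG level by 1.5 times or more, and Lpl was lower by as much. These are 3 and 1 of the 8 members, where 3.21% of the 8001 genes with at least 100 UMIs were that much higher and 1.94% that much lower. Fabp5 had 409 CPM in Ac and 186 CPM in IgG, a ratio of 2.20 (2.02 to 2.40). Spp1 had a ratio of 1.63 (1.56 to 1.71), and 20.8% of its IgG UMIs came from 1 cell. Gpnmb had one of 2.33 (1.37 to 4.21) on 116 and 16 UMIs, and Lpl one of 0.383 (0.300 to 0.490). Apoe was 1.35 times higher (1.34 to 1.36), while Trem2, Abca1 and Lgals3 had ratios of 1.17, 1.16 and 1.11. The median over the 8 members was 1.26, against 0.998 over all genes. Because the members were chosen with earlier results of these data known, such counts and medians are descriptions, here and in the comparisons below.

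C was set against the same IgG library. Fabp5 was 2.85 times higher in C (2.61 to 3.10), with 528 against 186 CPM, and Gpnmb 3.41 times (2.03 to 6.14), while Lpl had a ratio of 0.588 (0.466 to 0.745). So 2 of 8 members passed 1.5 times upwards, where 3.0% of 7669 genes did, and 1 downwards, where 2.78% did. Apoe was at 20018 CPM in C and 13475 CPM in IgG, a ratio of 1.49 (1.470 to 1.501), just under that size. Trem2 was 1.36 times higher (1.29 to 1.45), Spp1 1.30 times (1.24 to 1.37) and Lgals3 1.26 times (1.22 to 1.31). Abca1 had a ratio of 0.917 (0.847 to 0.993), which was 1.01 when every cell had equal weight. The members' median was 1.33, against 0.992 over all genes.

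For aC+C against IgG, Fabp5 had the largest of the 3 ratios over this control, 3.37 (3.11 to 3.67), with 627 against 186 CPM. Spp1 was 1.57 times higher (1.498 to 1.641) and Gpnmb 3.26 times (1.95 to 5.83), and Lpl had a ratio of 0.368 (0.288 to 0.471). That makes 3 members upwards, beside 4.18% of 8046 genes, and 1 downwards, beside 3.12%. Lgals3 was 1.42 times higher (1.37 to 1.46), Abca1 1.21 times, Trem2 1.20 times and Apoe 1.17 times (1.15 to 1.18). The members' median was 1.31, against 0.993 over all genes. The 3 comparisons share the IgG library, so its Fabp5, Gpnmb and Lpl values enter all of them; IgG also had the fewest macrophages. Summed monocyte markers in the gate were 1326 CPM for Ac, 1503 for C and 1902 for aC+C, against 2340 for IgG, and their part in the ratios was not tested. Taking 3 ranges of marker share with equal weight, a setting chosen after the data were seen, left Fabp5 at least 1.5 times higher than IgG in all 3 groups.

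**Figure D3:**
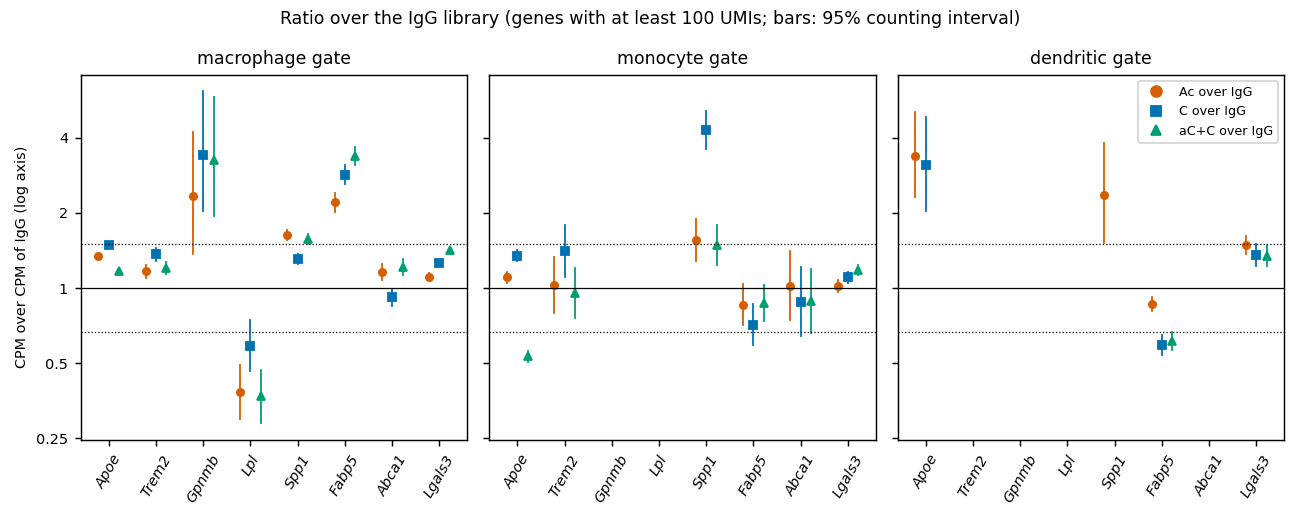
Ratio of the CPM in Ac, C and aC+C to that in IgG (log axis) in the macrophage, monocyte and dendritic gates for members with at least 100 UMIs over both libraries, with bars for the 95% counting interval, a solid line at 1 and dotted lines at 1.5 times either way. In macrophages Fabp5 lies above the upper dotted line and Lpl below the lower one in all 3 groups, whereas Fabp5 lies below 1 in the dendritic gate.

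The aC+C library was also set against Ac and against C. In aC+C against Ac, Fabp5 was 1.53 times higher (1.47 to 1.59), with 627 against 409 CPM, and was the only member past 1.5 times, where 1.69% of genes were higher by that much; none was lower, where 1.21% were. Lgals3 was 1.28 times higher, and Apoe had a ratio of 0.865 (0.859 to 0.871). In aC+C against C, no member was 1.5 times higher, where 2.2% of genes were, and Lpl, at 0.626 (0.501 to 0.782), was the only one lower, where 1.85% were. Abca1 was 1.32 times higher (1.25 to 1.40), with 326 against 247 CPM, and Apoe had a ratio of 0.785 (0.780 to 0.791).

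Other genes of lipid handling were counted in the same gate from lists drawn up beside the members. Lysosome and lipid breakdown genes, all 14 of them measured, had 1 member at least 1.5 times higher in Ac than IgG, 2 in C and 3 in aC+C, and none lower. Over all genes of this gate 3.21%, 3.0% and 4.18% were that much higher than IgG in Ac, C and aC+C and 1.94%, 2.78% and 3.12% that much lower, so 0 or 1 gene of a list this short is no result about the list. Cd63, a lysosomal membrane protein, was in each of these, at 549, 688 and 637 CPM against 355 CPM in IgG, and Ctsd, which encodes cathepsin D, had ratios of 1.66 in C and 1.81 in aC+C. Of 6 measured genes of fatty acid binding and lipid droplets, 1 was higher than IgG for Ac, 0 for C and 2 for aC+C, beside the same 3.21%, 3.0% and 4.18% of genes. Hilpda, an inhibitor of fat breakdown on lipid droplets that responds to hypoxia, was at 154 CPM in Ac, 79.1 in C, 219 in aC+C and 98.3 in IgG, so aC+C was 2.22 times above IgG (1.98 to 2.51) and 2.76 times above C (2.53 to 3.02). Plin2, a coat protein of lipid droplets, was at 351 CPM in aC+C, against 227 for Ac, 212 for C and 220 for IgG.

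Among lipid uptake genes, the fatty acid receptor gene Cd36 was at 17.04 CPM in aC+C, on 182 UMIs, against 7.69 CPM in Ac, 7.86 CPM in C and 7.58 CPM in IgG. Its ratios in aC+C were 2.21 over Ac, 2.17 over C and 2.25 over IgG (1.47 to 3.56). Of the lipoprotein components only Pltp, the phospholipid transfer protein, had 100 UMIs, and it was lower in each group than in IgG, at 104 CPM for Ac, 140 for C and 105 for aC+C against 276 for IgG, with ratios of 0.378, 0.507 and 0.382. All 8 genes of TREM2 adaptor and signalling were measured, with none higher and 1 lower, Ms4a4c, in Ac and aC+C, where 1.94% and 3.12% of all genes were lower. Tyrobp, the adaptor itself, was at 2254 CPM in Ac, 2291 in C, 2474 in aC+C and 2284 in IgG. Among 10 genes of cholesterol efflux and LXR targets, Scd2 was higher in Ac, beside 3.21% of all genes, and Abca9 lower in C and aC+C, beside 2.78% and 3.12%. Nr1h3, the LXR alpha receptor, was at 16.5, 20.8, 25.9 and 17.3 CPM. Of 10 other genes reported with these macrophages, 9 or 10 were measured and only Csf1 in aC+C passed 1.5 times, where 4.18% of genes were higher. Receptors of osteopontin had 1 higher gene in Ac and 1 in aC+C, in both Itga9, where 3.21% and 4.18% of genes were higher.

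In the monocyte gate Fabp5 was at 178 CPM in Ac, 148 in C, 180 in aC+C and 207 in IgG, with ratios over IgG of 0.858 (0.710 to 1.04), 0.713 (0.590 to 0.864) and 0.869 (0.735 to 1.03), with the interval of C alone wholly below 1. Apoe in aC+C had a ratio of 0.533 (0.507 to 0.561) over IgG, 0.483 over Ac and 0.396 over C. Summed neutrophil markers, which include S100a8 and S100a9 of monocytes, were 2354 CPM in this gate of aC+C, against 355 in Ac, 1318 in C and 827 in IgG, and their part in the Apoe ratio was not tested. Spp1 had 683 CPM in C and 160 CPM in IgG, a ratio of 4.27 (3.59 to 5.12); 1 cell gave 24.2% of the UMIs in C and 40.1% in IgG. Of the 6 members with 100 UMIs, 1 passed 1.5 times upwards in Ac and in C over IgG, beside 2.32% and 2.16% of genes, and 0 in aC+C, beside 4.76%. Downwards it was 0 in Ac and in C, beside 2.81% and 3.27%, and 1 in aC+C, beside 5.47%.

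In the dendritic gate Fabp5 was lower in each group than in IgG, with ratios of 0.861 in Ac (0.807 to 0.919), 0.593 in C (0.542 to 0.649) and 0.612 in aC+C (0.562 to 0.665). The migratory part was 58 of 101 cells in Ac, 25 of 58 in C, 37 of 57 in aC+C and 61 of 84 in IgG. Within that part alone Fabp5 was at 3522, 2734, 2404 and 2760 CPM, so IgG was not the highest there. Apoe was at 132 CPM in Ac, 122 in C, 69.2 in aC+C and 39.2 in IgG, and 1 cell gave 53.8% of the UMIs in Ac. Free RNA, estimated as described for lymphocytes from 6 macrophage genes, would bring 104, 88.1, 86.2 and 105 CPM. Apoe was within 1.5 times of that expectation in Ac, C and aC+C and at 0.375 of it in IgG. By those genes the free share of the gate was 2.01%, 2.05%, 2.18% and 5.05%. By 5 fibroblast genes it was 0.709%, 1.32%, 1.16% and 1.10%, which would lower the expectation in every library. Those shares rest on only 8, 7, 11 and 7 UMIs of these genes in Ac, C, aC+C and IgG. The myeloid gene Lyz2 was 3.21 to 14.1 times its expectation in this gate. Whether these Apoe levels are background was not tested. Apoe in free RNA itself was 2.51 times higher in Ac and 2.07 times higher in C than in IgG. Spp1 was 3.81 times its expectation in Ac, 3.59 times in C, 2.03 times in aC+C and 0.803 times in IgG. Of 4, 3 and 2 measured members, 2, 1 and 0 passed 1.5 times upwards over IgG, beside 4.68%, 5.58% and 5.16% of genes, and 0, 1 and 1 downwards, beside 5.31%, 7.85% and 8.78%. The upward members were Apoe in Ac and C and Spp1 in Ac. Of Apoe and Spp1, only Spp1 was more than 1.5 times above what free RNA would bring by the 6 macrophage genes, and in IgG it was not. Fabp5 was 206 to 394 times and Lgals3 34.2 to 87.5 times its expectation in this gate. Abca1 was 4.66 to 6.57 times its own, on 28 UMIs over all libraries.

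Lymphocytes held little Apoe, and its amount was close to what free RNA would bring. Free RNA was read from barcodes of 1 to 50 UMIs, which were taken to hold RNA from the fluid, and its share in a gate was set by 6 macrophage genes, C1qa, C1qb, C1qc, Pf4, Ms4a7 and Mrc1, that lymphocytes should lack. CD8 T cells had 680 Apoe UMIs in Ac, 611 in C, 876 in aC+C and 368 in IgG, where 606, 563, 682 and 460 were expected. The ratios of observed to expected were 1.12 (0.989 to 1.28), 1.08 (0.946 to 1.24), 1.28 (1.15 to 1.44) and 0.80 (0.687 to 0.932). NK cells had 273, 461, 159 and 103 UMIs where 202, 404, 116 and 91.1 were expected, with ratios of 1.35 (1.09 to 1.68), 1.14 (0.972 to 1.34), 1.38 (1.05 to 1.82) and 1.13 (0.819 to 1.57). All 4 libraries of both gates were within 1.5 times of the expectation, as were those of the CD4 T gate (1.13 to 1.49). So were those of the macrophage gate itself (0.736 to 0.845). The ratio therefore cannot tell free RNA from other macrophage RNA in a lymphocyte barcode, and the source was not tested. The intervals of aC+C in the CD8 T and NK gates and of Ac in the NK and CD4 T gates lay above 1, and that of IgG in the CD8 T gate below it.

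**Figure D4:**
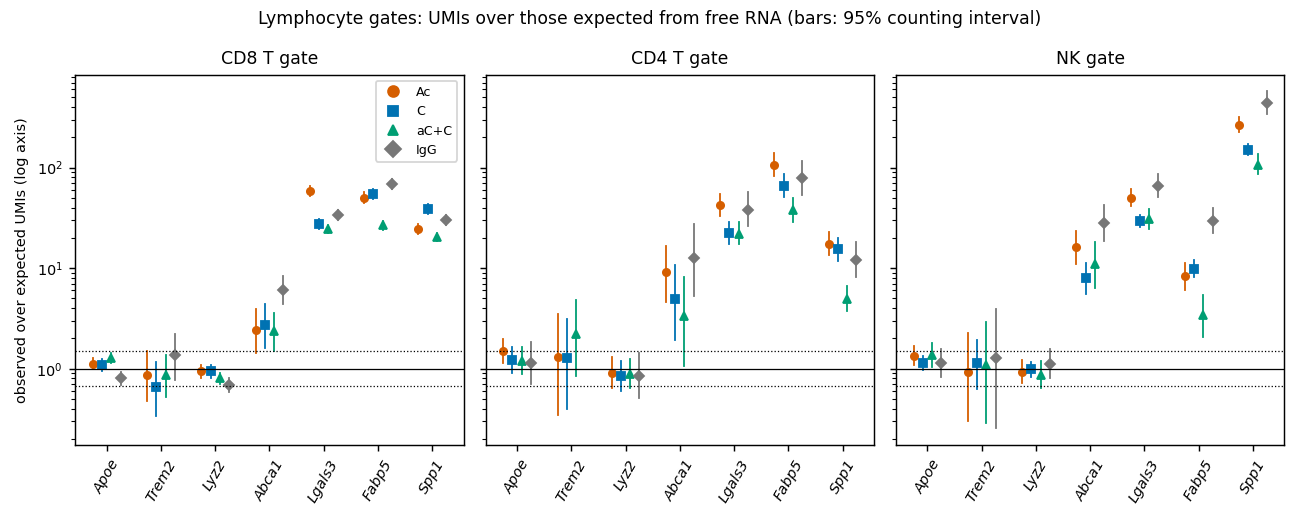
UMIs of 6 members and of Lyz2 in the CD8 T, CD4 T and NK gates over those expected from free RNA (log axis), with 1 symbol per library (Ac, C, aC+C and IgG from left to right), bars for the 95% counting interval, a solid line at 1 and dotted lines at 1.5 times either way. Apoe and Lyz2 lie between the dotted lines in every gate and library, while Lgals3, Fabp5 and Spp1 lie well above it.

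Set side by side, 1 anchor UMI came with 1.78 Apoe UMIs in CD8 T cells of Ac, with 1.34 in macrophages and with 1.59 in free RNA of that library. In C these numbers were 1.87, 1.41 and 1.73, in aC+C 1.83, 1.15 and 1.43, and in IgG 1.14, 1.05 and 1.42. Monocytes, which had Apoe without many anchors, stood apart at 37.4, 42.3, 19.8 and 29.4. Lyz2, another abundant myeloid gene, was between 0.692 and 1.12 times its expectation in the 3 lymphocyte gates; it is on the list that limits myeloid UMIs in these gates, and Apoe is not. Over libraries, Apoe was lowest in IgG both in lymphocytes and in free RNA, but the order of the other 3 differed. CD8 T cells had 44.2 CPM in Ac, 64.9 in C, 61.1 in aC+C and 21.4 in IgG, NK cells 43.8, 69.5, 56.1 and 14.99 CPM, and free RNA 5191, 4291, 3949 and 2070 CPM. The free share by the 6 anchors was 0.759%, 1.39%, 1.21% and 1.29% of the UMIs of the CD8 T gate and 0.624%, 1.42%, 1.03% and 0.641% of those of the NK gate.

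Few lymphocytes held more than a handful of Apoe UMIs. Of 1148 CD8 T cells of Ac 681 had none and 7 had 5 or more; in C, aC+C and IgG 14 of 609, 9 of 950 and 3 of 1022 had 5 or more. One CD8 T cell of aC+C had 59 and one of IgG 31, and cells with 5 or more held 7.65%, 14.7%, 12.3% and 16.0% of the UMIs. Apoe UMIs per CD8 T cell grew with depth, at 0.355 in cells of 5000 to 10000 UMIs in Ac and 1.13 in cells of 20000 or more, and the anchors grew alongside, at 0.216 and 0.626. Per 1000000 UMIs, the same cells had 46.5 and 39.6 CPM in Ac, and in IgG 22.1 and 20.2 CPM. NK cells of these depths had 0.469 and 1.07 Apoe UMIs per cell in Ac and 0.349 and 2.26 in C. Those of IgG had 0.153 and 0.265, and 0.234 at 1000 to 5000 UMIs. Their levels were 63.6 and 40.6 CPM in Ac, 47.5 and 82.8 in C, and 20.5 and 9.28 in IgG. CD4 T cells of Ac fell from 92.7 CPM at 1000 to 5000 UMIs to 44.2 CPM at 10000 to 20000. Why Apoe followed the cell's depth in CD8 T cells, and hardly in NK cells of IgG, was not tested. With 5 fibroblast genes as anchors in place of the macrophage genes, the ratio in IgG was 0.344 in CD8 T cells and 0.312 in NK cells, and that in NK cells of C was 0.309, while the other 5 ratios stayed between 0.884 and 1.25. These anchors, Col1a1, Col1a2, Col3a1, Dcn and Sparc, had 402 UMIs in CD8 T cells of IgG. With Pdgfra in place of Sparc the sum was 162. In NK cells of C the sums were 285 and 79, and in NK cells of IgG 124 and 110. Most anchor UMIs in CD8 T cells of IgG and NK cells of C were thus of Sparc. Its part in the ratios was not tested. Under settings chosen after the data were seen, aC+C passed 1.5 times upwards. With Lyz2 as the only anchor its ratio was 1.59 in both gates. With a looser limit, which let in lymphocytes with more myeloid UMIs, it was 1.62 in NK cells. With that limit IgG was more than 1.5 times below its expectation in CD8 T cells.

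Among the other members in lymphocytes, Trem2 was within 1.5 times of its expectation in all 4 libraries of the NK gate and in 3 of the CD8 T gate, on 3 to 19 UMIs. Gpnmb was 3.32 to 93.0 times above expectation in NK cells and 2.96 to 32.3 times in CD8 T cells, in no library within 1.5 times. These ratios rested on 2 to 6 UMIs a library in NK cells and 6 to 18 in CD8 T cells. The expectation for Gpnmb rested on 15, 21, 42 and 3 free RNA UMIs in Ac, C, aC+C and IgG. Spp1 was 107 to 440 times above expectation in NK cells and 20.5 to 39.1 times in CD8 T cells. Lgals3 was 29.6 to 66.2 times above it in NK cells and 24.6 to 58.4 times in CD8 T cells, and Fabp5 26.7 to 68.2 times in CD8 T cells and 3.41 to 29.3 times in NK cells, where 1 cell of IgG gave 68.5% of the UMIs. Abca1 was above it too, 8.03 to 28.0 times in NK cells and 2.36 to 6.10 times in CD8 T cells, on 18 to 45 UMIs a library. Spp1 was seen in 39.6%, 41.6%, 33.6% and 44.9% of NK cells thinned to 1000 UMIs in Ac, C, aC+C and IgG, against 5.94%, 6.90%, 3.51% and 5.95% of dendritic cells, with median depths of 9708.5 to 12841.5 UMIs in NK and 9118 to 13114 in dendritic cells.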

How the data were processed

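Per the submitters' processing notes, Cell Ranger 2.1.1 and the mouse build mm10 were used; version 3.0.2 stands in the matrix headers. The values are raw UMI counts per gene and barcode, as the authors deposited them, with the deposited lists of gene and barcode names. The 8 members and all lists were chosen with earlier results of these data known, and gate thresholds were set after seeing the data. The macrophage gate also used a marker whose name is not reported here. UMIs were summed per gate and library and given per 1000000 UMIs of that sum. Gates needed 50 cells in a library, and counts of members past 1.5 times were limited to genes that had 100 UMIs or more in the 2 libraries together. Ratios have exact conditional binomial intervals, levels exact Poisson intervals and the expectation from free RNA the same kind of ratio interval, all at 95%. With 1 library per group no test was made. Genes outside the members were named where their ratio over IgG, Ac or C passed 2, and, chosen after their values were seen, where a count of 5 or fewer rested on them, as were Tyrobp and Nr1h3; the 3 genes most like each member were named by Pearson r on log2(CPM + 10). Scrublet (scanpy 1.11.5) marked 2, 0, 3 and 0 barcodes by its own threshold in Ac, C, aC+C and IgG, so doublets were not removed, except as an alternative that dropped the 130, 142, 133 and 94 highest scores. Apoc2 and Clec7a were not analysed here. Computations used Python 3.11.15, numpy 2.4.6, pandas 2.3.3, scipy 1.17.1 and matplotlib 3.10.9 and were tested on simulated data.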

Additional observations from a re-analysis of the deposited data

Results flagged for a closer look

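Fabp5 differed from IgG in opposite directions in dendritic cells and macrophages, a difference between gates that was not tested. Its ratio over IgG was 0.861 in dendritic cells and 2.20 in macrophages of Ac, 0.593 and 2.85 in those of C, and 0.612 and 3.37 in those of aC+C. Within the migratory dendritic cells, which held nearly all of it, Fabp5 was at 3522 CPM in Ac, 2734 CPM in C and 2404 CPM in aC+C against 2760 CPM in IgG, so there Ac was above IgG and C close to it. In monocytes of C the ratio was 0.713, again against 2.85 in macrophages. Apoe in aC+C was below IgG in monocytes, at a ratio of 0.533, and above it in macrophages, at 1.17, which was not tested either. Barcodes that met no gate, which no comparison used, held Apoe at 2530 CPM in Ac, 2568 CPM in C, 1708 CPM in aC+C and 1574 CPM in IgG, far above the lymphocyte gates.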

How the results depend on the processing

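No paired analysis was possible because each group has 1 library and the labels give no replicate numbers. No member ratio past 1.5 times reversed; among the macrophage ratios over IgG, that of Abca1 in C, 0.917, crossed 1, at 1.01 with equal weight per cell. Of 120 counts of members recomputed, 109 stayed within 1.5 times, as did 23 of 24 counts of libraries; 230 of 288 member ratios stayed within their interval. In C over IgG, the count of lower members was 0 in place of 1 with a minimum of 8000 UMIs, with stricter gates and without the 1% of cells richest in the member. Its count of higher members was 4 in place of 2, with Apoe and Spp1 added, without the richest cell and without the richest 1%. In aC+C over Ac, the count of higher members was 2 in place of 1, with Gpnmb added, under stricter gates, without the richest cell and without the richest 1%, and 0 with marker ranges weighted equally; the count of lower members was 1, Lpl, with equal weight per cell. In aC+C over C, the count of lower members was 0 with equal weight per cell. The shares of all genes past 1.5 times were computed for the main setting only, so these changed counts have no share of their own beside them. NK libraries with Apoe within 1.5 times of the expectation were 2 of 4 with fibroblast anchors. They were 3 of 4, aC+C leaving that range upwards, with Lyz2 as the only anchor and with a looser myeloid limit. CD8 T libraries were 3 of 4 under each of these 3 settings, without IgG, aC+C and IgG in turn. The cause was not tested in any of these. Leaving out the richest 1%, weighting marker ranges equally, the Lyz2 anchor and the myeloid limit were chosen after seeing the data. Over IgG, Fabp5 stayed between 2.00 and 2.63 for Ac, between 2.55 and 3.53 for C and between 3.21 and 4.13 for aC+C. Gpnmb ranged from 2.60 to 12.04 for aC+C. Spp1, counted as higher in Ac and aC+C, ranged from 1.29 to 2.04 for Ac and from 1.35 to 1.87 for aC+C. Some settings thus put it below 1.5 times in both. A count of 2 in place of 3 still stays within 1.5 times, so a lost member need not show in the counts above. Gpnmb and Lpl are limited by few UMIs from few cells.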
